A study of Homo sapiens with 12 samples.

Results

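Cholesterol synthesis and transport genes were followed in 501Mel, an established human melanoma cell line, across 6 treatments with 2 RNA-seq libraries each. The set was a given list of 31 named genes for sterol regulation, synthesis, movement and disposal, chosen with earlier results of these data known. All 31 were rows of the count table, which holds 56638 gene symbols. All cells were exposed for 48 h, either to vehicle (DMSO), to 1 μM vemurafenib (Vem, a BRAF inhibitor), to 10 nM TCDD (dioxin, a canonical ligand of the aryl hydrocarbon receptor AhR), to 5 μM resveratrol (RSV, studied as an AhR antagonist), to RSV+Vem or to RSV+TCDD. The dose of TCDD in RSV+TCDD was 10 nM in the treatment protocol and 1 nM in the label of those libraries, so the doses of TCDD with and without RSV may differ. The groups share a single cell line and medium, and the labels do not say whether the libraries of a group came from separate cultures, so the p-values measure only the spread between these libraries. Of the 31 genes, 29 passed the filter on low counts. The efflux pumps ABCA1, with 0 to 3 counts per library, and ABCG1, with 0 to 7, did not pass it and were not tested.

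Cells make cholesterol from acetyl-CoA through mevalonate, isoprenoid diphosphates, squalene and lanosterol, or take it up in lipoproteins and release it from lysosomes. When sterols in the endoplasmic reticulum run low, SCAP escorts the membrane-bound factor made from SREBF2 to the Golgi, where it is cut and freed to switch on the synthesis and uptake genes. INSIG proteins hold this complex back when sterols are plentiful. Oxysterols activate the LXR receptors, which turn on efflux pumps and MYLIP, a ubiquitin ligase that marks lipoprotein receptors for destruction. In melanocytic cells, sterols also serve the membranes of melanosomes.

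Counts on genes ranged from 8378655 to 25076925 per library, and the 31 genes held between 0.171% and 0.262% of them. RIN values ranged from 8.6 to 9.7, and the lowest were those of RSV+Vem. The 6 melanocytic markers MLANA, PMEL, TYR, DCT, MITF and SOX10 were counted in all 12 libraries, with a summed level of 13868 and 14528 CPM (the count as a share of the library, TMM-scaled) with vehicle, 32655 and 34823 with Vem, 19953 and 20288 with TCDD, 9356 and 10134 with RSV, 14636 and 15306 with RSV+Vem, and 14401 and 14858 with RSV+TCDD. Keratinocyte markers (KRT5, KRT14) summed to at most 0.112 CPM, blood markers (PTPRC, CD3E) to at most 0.307 and endothelial markers (PECAM1, CDH5) to at most 0.532, with PECAM1 at 0 counts in every library. The 3 fibroblast markers COL1A1, COL3A1 and PDGFRA summed to between 1.03 and 1.77 CPM without RSV and between 3.49 and 3.67 with RSV. The melanocytic sum was mostly PMEL and DCT, and its markers did not all move with it. With TCDD, mean MITF was 903 CPM against 1068 with vehicle and SOX10 688 against 719, with overlapping libraries. MLANA, PMEL, TYR and DCT were higher with TCDD. With RSV+Vem, MLANA, TYR, MITF and SOX10 were lower than with vehicle, DCT was higher and PMEL was about equal. The part of these shifts in the results below was not tested. Levels of a bulk sample cannot tell a change in the number of cells of a kind from a change in RNA per cell.

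Promoter windows of 300 bases, from 250 before to 50 after a transcript start, were taken from RefSeq on GRCh38.p14. They were found for 27 of the 31 genes, in 36 windows that partly overlap, and not for ACAT2, FDFT1, SQLE and ABCG1. The windows of INSIG1 (chr7:155297628-155297927, plus strand), IDI1 (chr10:1048837-1049136, minus strand) and STARD4 (chr5:111512486-111512785, minus strand) are shown because these genes were lower with Vem and higher when RSV was added to it. The window of TM7SF2 (chr11:65111622-65111921, plus strand) is shown because this gene had the largest rise with Vem and with RSV. Capitals mark the letters CACNCCAC, a core of the sterol response element that SREBP factors bind, and CCAAT, the box bound by their partner NF-Y, on either strand.
INSIG1: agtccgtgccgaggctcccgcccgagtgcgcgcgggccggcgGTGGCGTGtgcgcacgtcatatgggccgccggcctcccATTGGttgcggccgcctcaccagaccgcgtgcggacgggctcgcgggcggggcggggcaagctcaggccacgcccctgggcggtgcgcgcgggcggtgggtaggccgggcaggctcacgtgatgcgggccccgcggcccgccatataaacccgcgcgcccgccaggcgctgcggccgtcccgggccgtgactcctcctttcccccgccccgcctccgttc
IDI1: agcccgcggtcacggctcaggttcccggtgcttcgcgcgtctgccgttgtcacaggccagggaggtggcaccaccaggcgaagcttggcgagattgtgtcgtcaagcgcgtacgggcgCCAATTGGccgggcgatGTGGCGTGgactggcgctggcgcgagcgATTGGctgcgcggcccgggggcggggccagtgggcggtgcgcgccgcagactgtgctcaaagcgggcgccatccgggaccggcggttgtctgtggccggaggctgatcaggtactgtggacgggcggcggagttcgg
STARD4: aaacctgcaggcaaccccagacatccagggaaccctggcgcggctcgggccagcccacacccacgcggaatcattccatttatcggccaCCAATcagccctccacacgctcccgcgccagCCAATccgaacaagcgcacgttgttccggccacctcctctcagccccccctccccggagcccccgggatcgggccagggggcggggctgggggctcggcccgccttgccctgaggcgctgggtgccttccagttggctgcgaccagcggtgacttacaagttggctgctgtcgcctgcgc
TM7SF2: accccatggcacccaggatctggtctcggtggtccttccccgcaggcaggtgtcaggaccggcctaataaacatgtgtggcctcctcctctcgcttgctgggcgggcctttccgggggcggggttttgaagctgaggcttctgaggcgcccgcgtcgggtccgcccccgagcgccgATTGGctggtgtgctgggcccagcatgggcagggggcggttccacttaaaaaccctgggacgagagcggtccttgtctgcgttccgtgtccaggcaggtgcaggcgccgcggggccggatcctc
IDI1 has 3 windows in the table and the other 3 genes have 1 each. The core CACNCCAC was present in the windows shown of INSIG1 and IDI1, on the minus strand in both, and did not occur in the windows of STARD4 and TM7SF2, whereas CCAAT was present in all 4 windows. Of the other IDI1 windows none holds CACNCCAC and 1 holds CCAAT. Over all windows, CACNCCAC was in 6 of 36 (16.7%), against 5.87% of the 35116 RefSeq windows of this length, and CCAAT was in 21 (58.3%), against 34.6%. Of the 6 windows with CACNCCAC, 2 belong to SC5D and hold the same site. The AhR response element core GCGTG was in 26 (72.2%), against 36.5%. It overlaps CACNCCAC in INSIG1, IDI1, SREBF2 and SC5D, and not in ABCA1. The RefSeq windows were not matched to those of the sterol genes for base composition. The E-box CACGTG was in 6 (16.7%), against 7.26%. These matches are descriptions of sequence and not binding sites.

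**Figure D1:**
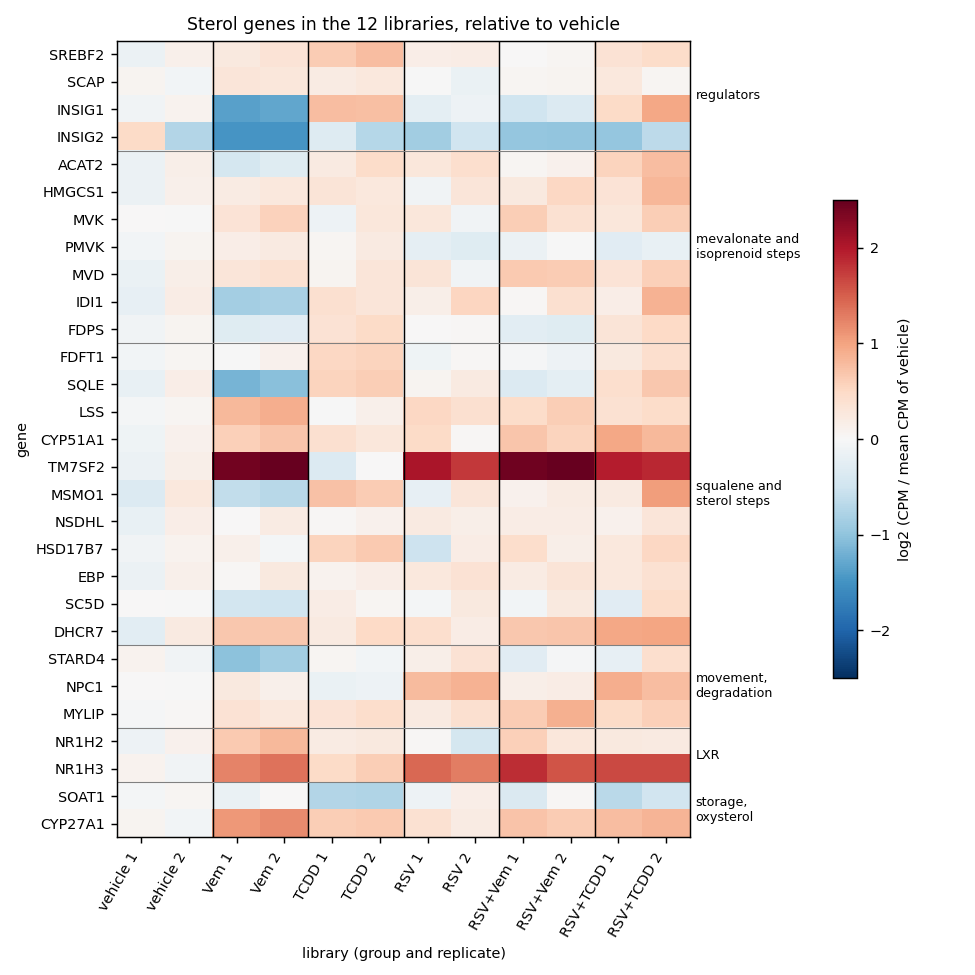
Heat map of the 29 tested genes (rows, grouped by role) in the 12 libraries (columns), coloured by log2 of the TMM-scaled CPM over the mean CPM of vehicle, from blue (lower) to red (higher). INSIG1, INSIG2, IDI1, SQLE and STARD4 are blue in both Vem libraries, TM7SF2 is red in every library with Vem or RSV, and INSIG2 differs between the vehicle libraries.

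The first comparison asked what Vem did to these genes. With Vem, INSIG1, a negative regulator of the pathway, and SQLE, the enzyme that adds an epoxide to squalene, fell by more than 1 on the log2 scale, while TM7SF2, an enzyme of late sterol synthesis, the LXR receptors and CYP27A1, an oxysterol-forming enzyme, rose. Relative to vehicle, 11 of the 29 tested genes were higher (background 25.5% of the 16080 genes tested) and 7 were lower (background 26.9%), and the median log2 fold change was 0.18 over the 29 and -0.03 over all genes. Calls are those of edgeR's quasi-likelihood test at 0.05 after Benjamini-Hochberg adjustment over all 16080 genes, written as edgeR adjusted p. With 2 libraries per group exact permutations cannot reach 0.05 for a single gene, and each p therefore depends on the model. With the spike-in scaling described next, 1 gene was called higher with Vem (1.21% of all genes) and 7 lower (22.5% of all genes).

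All 4 regulators were called with Vem, 2 higher and 2 lower, where 25.5% of all genes were higher and 26.9% lower. INSIG1 had 42.0 and 47.8 CPM in the vehicle libraries and 17.5 and 18.3 CPM in the Vem libraries. Both Vem libraries were far below both vehicle libraries, a log2 fold change of -1.33 ± 0.14 (SE, edgeR adjusted p = 4.78e-07). INSIG2, its close relative, had 91.1 and 39.4 CPM with vehicle and 23.6 and 23.4 with Vem. The vehicle libraries differed widely from each other and did not overlap those with Vem, and the log2 fold change of -1.47 ± 0.38 (SE, edgeR adjusted p = 0.0139) was no longer called without Vem replicate 1 (-1.47) or Vem replicate 2 (-1.46), nor in a fit of the vehicle and Vem libraries alone (adjusted p = 0.181). Without vehicle replicate 1 its log2 fold change was -0.74. SREBF2 and SCAP were called higher, with log2 fold changes of 0.30 and 0.29, and both turned negative when libraries were scaled to the ERCC spike-ins (-0.36 and -0.36). SREBF2 was not called without vehicle replicate 1 (0.16) or Vem replicate 2 (0.25), nor SCAP without vehicle replicate 2 (0.24), Vem replicate 1 (0.29) or Vem replicate 2 (0.29).

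Scaling to those spike-ins, RNA standards added to each sample, shifted the median log2 fold change of all genes by -0.65 for Vem, -0.51 for TCDD and -0.17 for RSV against vehicle. It shifted it by -0.53 for RSV+Vem against RSV, -0.69 for RSV+TCDD against TCDD, -1.03 for RSV+TCDD against RSV and -0.14 for Vem against TCDD. For RSV+Vem against Vem the shift was -0.04, and it was 0.13 for the interaction of RSV and Vem and -0.52 for that of RSV and TCDD, which are defined below. ERCC counts were between 5366 and 19166 per library, and 11865 and 19166 in the RSV+TCDD libraries. Control sequences, mostly ERCC, made up 0.0389% and 0.0903% of the counts in the RSV+Vem libraries. They made up 0.0630% and 0.0936% in the RSV+TCDD libraries, and replicates of the other groups lay closer together. The scaling thus differed between replicates of a group, and its part in calls lost with the spike-ins was not tested. Changes are therefore reported relative to the bulk of the genes, and each called gene whose direction turned with the spike-ins is named.

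Of the 7 genes of the mevalonate and isoprenoid steps, 3 fell and 1 rose with Vem, against 26.9% and 25.5% of all genes. IDI1, the isomerase of the isoprenoid unit, had 45.6 and 60.2 CPM with vehicle and 29.4 and 30.3 with Vem, a log2 fold change of -0.83. Its groups did not overlap, but the call was lost without vehicle replicate 2 (-0.60), Vem replicate 1 (-0.81) or Vem replicate 2 (-0.85). ACAT2, the thiolase that joins acetyl-CoA units, fell by 0.37 on the log2 scale and FDPS, the farnesyl diphosphate synthase, fell by 0.30, and neither was called without vehicle replicate 2 (-0.20 and -0.20) or Vem replicate 1 (-0.30 and -0.29), nor FDPS without Vem replicate 2 (-0.31). MVK, mevalonate kinase, was called higher at 0.46, a value that became -0.19 with the spike-ins, and it was not called without vehicle replicate 1 (0.48), vehicle replicate 2 (0.47) or Vem replicate 2 (0.35). HMGCS1, the synthase ahead of mevalonate, PMVK, the kinase after MVK, and MVD, the decarboxylase that makes the isoprenoid unit, did not pass the test, with log2 fold changes of 0.23, 0.19 and 0.33.

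Of the 11 genes from squalene to cholesterol, 4 were higher and 1 was lower, against 25.5% and 26.9% of all genes. SQLE, the epoxidase of squalene, had 40.3 and 51.5 CPM with vehicle and 20.4 and 22.1 with Vem. Every Vem library was below every vehicle library, and the log2 fold change was -1.11 ± 0.13 (SE, edgeR adjusted p = 1.46e-06). LSS, the cyclase that makes lanosterol from the product of SQLE, had 73.4 and 78.8 CPM with vehicle and 133 and 142 with Vem, the opposite direction from the enzyme before it (0.86 ± 0.10, SE, edgeR adjusted p = 6.93e-07). TM7SF2, a reductase acting after lanosterol demethylation, had 5.67 and 6.96 CPM with vehicle and 33.6 and 35.3 with Vem. This was a 5.42-fold rise (log2 2.44 ± 0.15, SE, edgeR adjusted p = 4.01e-10), the largest among the 29 genes. DHCR7, the reductase of the final step to cholesterol, rose by 0.67 on the log2 scale. CYP51A1, the lanosterol demethylase, was called higher at 0.63 from only 49 and 71 counts with vehicle and 58 and 56 with Vem. Its call was lost under DESeq2 and without vehicle replicate 1 (0.53), Vem replicate 1 (0.68) or Vem replicate 2 (0.58), its value was -0.02 with the spike-ins, and 68.2% of its exonic bases overlap other annotated genes on the same strand. FDFT1 (squalene synthase), MSMO1 (methyl sterol oxidase), NSDHL (sterol dehydrogenase), HSD17B7 (keto reductase), EBP (sterol isomerase) and SC5D (sterol desaturase) did not pass the test, with log2 fold changes from -0.66 for MSMO1 to 0.14 for EBP.

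Among the transport and oxysterol genes, STARD4, a soluble carrier of sterols between membranes, had 29.0 and 25.5 CPM with vehicle and 13.5 and 15.0 with Vem (log2 -0.94 ± 0.18, SE, edgeR adjusted p = 0.000256). Its Vem libraries lay near the middle of the range from 0 to the vehicle level. NR1H3, the receptor LXRα, rose from 5.97 and 5.34 CPM to 13.3 and 14.5 (log2 1.30 ± 0.15, SE, edgeR adjusted p = 1.41e-06). NR1H2, the receptor LXRβ, rose by 0.72 on the log2 scale. CYP27A1, the mitochondrial sterol hydroxylase that forms an oxysterol, rose from 83.3 and 75.4 CPM to 167 and 179 (log2 1.13 ± 0.09, SE, edgeR adjusted p = 1.78e-08). MYLIP was called higher at 0.31, was -0.34 with the spike-ins, and was not called without vehicle replicate 1 (0.28), Vem replicate 1 (0.27) or Vem replicate 2 (0.36). NPC1, which exports cholesterol from lysosomes, and SOAT1, which esterifies it for storage, did not pass the test (0.18 and -0.08). The LXR-driven pumps ABCA1 and ABCG1 had at most 1 count in each of the vehicle and Vem libraries, which is too few to compare. Whichever library was left out, 6 of the 11 genes higher and 3 of the 7 lower were called. Without vehicle replicate 1 and without Vem replicate 2, 7 and 6 genes were called higher. Without vehicle replicate 2, Vem replicate 1 and Vem replicate 2, 4, 3 and 4 were called lower.

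**Figure D2:**
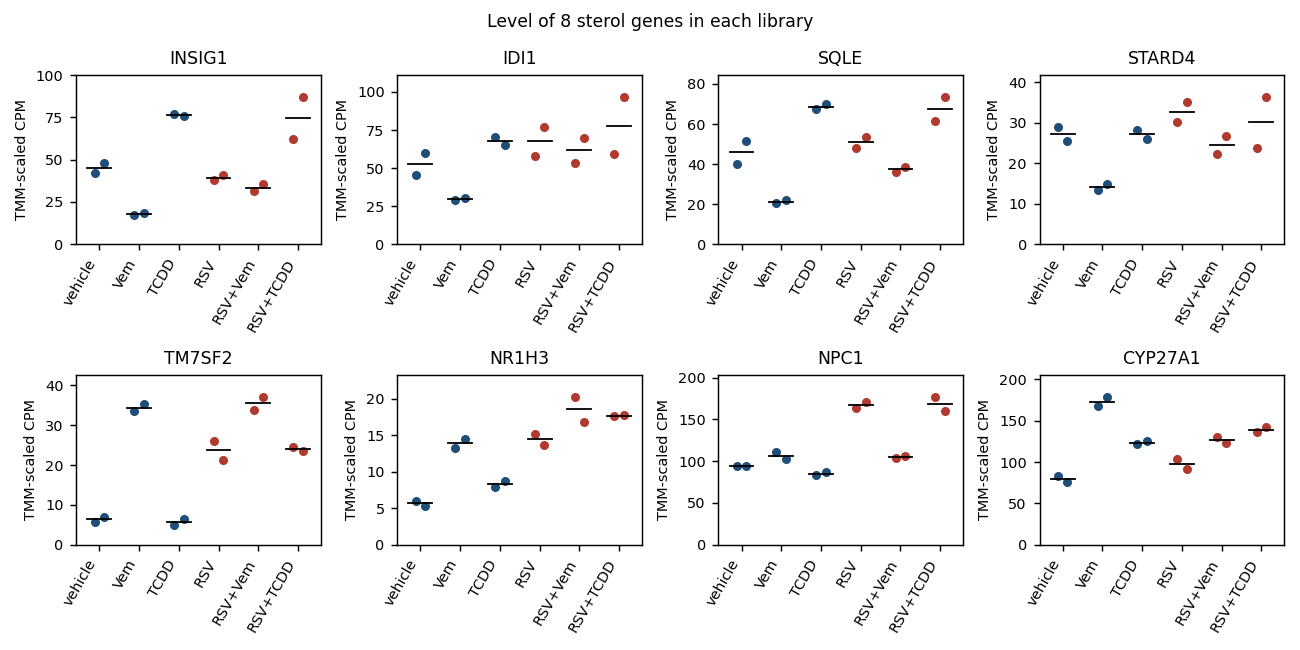
TMM-scaled CPM (vertical axes, from 0) of 8 genes in each library, with 1 point per library, a black line at the group mean, blue points without RSV and red points with RSV. INSIG1, IDI1, SQLE and STARD4 are lowest in the Vem libraries, TM7SF2 lies at 5.01 to 6.96 CPM with vehicle or TCDD and at 21.4 to 37.1 in the other groups, and NPC1 lies at 160 to 177 CPM with RSV or RSV+TCDD and at 83.5 to 111 elsewhere.

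The next comparison asked whether TCDD, the canonical AhR ligand, moved the same genes. Relative to vehicle, 8 of the 29 genes were higher (background 4.72%) and 1 was lower (background 2.01%), with a median log2 fold change of 0.29 against -0.0046 over all genes. INSIG1 rose from 42.0 and 47.8 CPM to 76.9 and 75.8 (log2 0.76 ± 0.13, SE, edgeR adjusted p = 0.0017). SREBF2 had 249 and 303 CPM with vehicle and 427 and 469 with TCDD (log2 0.70 ± 0.09, SE, edgeR adjusted p = 0.000196). The groups did not overlap in either gene. SQLE had 67.4 and 70.0 CPM with TCDD (log2 0.58 ± 0.12, SE, edgeR adjusted p = 0.00824), but was not called without vehicle replicate 1 (0.41), TCDD replicate 1 (0.61) or TCDD replicate 2 (0.55). CYP27A1 rose to 121 and 125 CPM (log2 0.64 ± 0.09, SE, edgeR adjusted p = 0.000448). SOAT1, the storage enzyme, was the gene that fell, from 146 and 157 CPM to 91.0 and 89.8 (log2 -0.75 ± 0.13, SE, edgeR adjusted p = 0.00136).

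FDFT1, NR1H3, FDPS and MYLIP were also called higher with TCDD, with log2 fold changes of 0.54, 0.55, 0.42 and 0.38, of which FDPS and MYLIP turned to -0.09 and -0.13 with the spike-ins. NR1H3 was not called by DESeq2, by a fit of the compared libraries alone or with any of the 4 libraries left out (0.46 to 0.63). MYLIP lost its call whichever library was left out (0.33 to 0.43), and FDPS lost it without vehicle replicate 1 (0.35), TCDD replicate 1 (0.48) or TCDD replicate 2 (0.37). TM7SF2, which moved most with Vem, had 5.01 and 6.32 CPM with TCDD, within or just below the vehicle range (log2 -0.18). None of the 29 genes was called with TCDD after scaling to the spike-ins, which left 0.0124% of all genes higher and 0.0498% lower, and INSIG1 was at 0.26, SREBF2 at 0.19 and SOAT1 at -1.25. Leaving out vehicle replicate 1, TCDD replicate 1 or TCDD replicate 2 left 4 genes called higher in each case, and leaving out vehicle replicate 2 left SOAT1 (-0.70) and INSIG2 (-0.99) called lower, 2 in all.

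**Figure D3:**
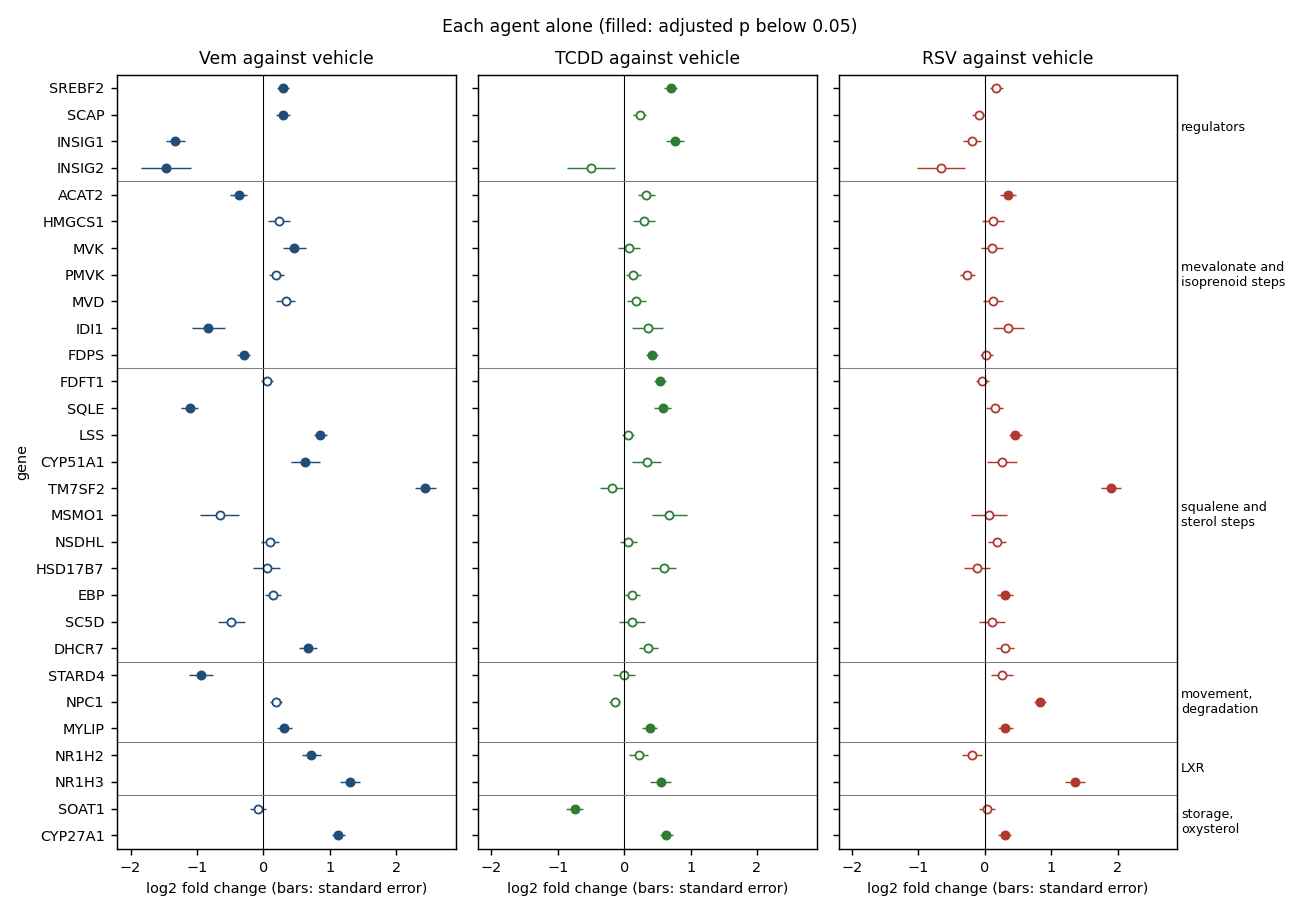
Log2 fold change against vehicle (horizontal axes, bars are the standard error) of each tested gene with Vem, TCDD or RSV alone, filled where the adjusted p was below 0.05. The panels share the same vehicle libraries. INSIG1 is at -1.33 with Vem, 0.76 with TCDD and -0.19 with RSV, and TM7SF2 is at 2.44, -0.18 and 1.90.

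With RSV alone, TM7SF2, NR1H3 and NPC1 rose the most and none of the 4 regulators passed the test. Relative to vehicle, 8 genes were higher (background 20.5%) and 0 were lower (background 20.2%). At an unadjusted p under 0.05, PMVK was the 1 gene lower in edgeR (log2 -0.26), and DESeq2 also called 0 lower. With the spike-ins 1 gene was higher, TM7SF2, and 0 were lower, against 1.59% and 0.703% of all genes. TM7SF2 rose from 5.67 and 6.96 CPM to 26.0 and 21.4 (log2 1.90 ± 0.15, SE, edgeR adjusted p = 6.51e-08). NR1H3 rose to 15.3 and 13.7 CPM (log2 1.36 ± 0.15, SE, edgeR adjusted p = 2.55e-06). Both RSV libraries were above both vehicle libraries by more than the spread within either group.

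NPC1 had 94.2 and 93.7 CPM with vehicle and 163 and 171 with RSV, a 1.78-fold rise (log2 0.83 ± 0.09, SE, edgeR adjusted p = 1.7e-06). This was the lysosomal exporter that Vem and TCDD did not move past the threshold. LSS rose to 109 and 101 CPM (log2 0.46 ± 0.10, SE, edgeR adjusted p = 0.000972). ACAT2, EBP, MYLIP and CYP27A1 were called higher at 0.35, 0.31, 0.31 and 0.30, and none of these 4 was called in a fit of the vehicle and RSV libraries alone, which left 4 genes higher. Leaving out a library ended the call of ACAT2 (vehicle replicate 1 or RSV replicate 2), EBP (vehicle replicate 1 or either RSV library), MYLIP (either vehicle library or RSV replicate 2) and CYP27A1 (vehicle replicate 2 or RSV replicate 1), at values between 0.18 and 0.36, and DESeq2 did not call EBP. Without vehicle replicate 1, 5 genes were called higher, and 1 was called lower without vehicle replicate 2 (INSIG2, -1.15) and without RSV replicate 1 (NR1H2, -0.44). Of the exonic bases of EBP, 36.4% overlap another annotated gene on the same strand. TM7SF2, NR1H3 and NPC1 were at 1.75, 1.19 and 0.66 with the spike-ins. ABCA1 had 1 and 3 counts with RSV and ABCG1 had 6 and 0, against 0 and 1 with vehicle for each.

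Vem and TCDD were also compared directly, since their comparisons with vehicle share the vehicle libraries. Of the 29 genes, 7 were higher with Vem than with TCDD (background 24.1%) and 11 were lower (background 26.4%). INSIG1 showed the largest fall, 17.5 and 18.3 CPM against 76.9 and 75.8 (log2 -2.09 ± 0.15, SE, edgeR adjusted p = 1.73e-09), a level 0.235 times that with TCDD. With the spike-ins 1 gene was called higher (2.21% of all genes) and 4 lower (7.46%). SQLE had 20.4 and 22.1 CPM against 67.4 and 70.0 (log2 -1.69 ± 0.13, SE, edgeR adjusted p = 8.29e-09). MSMO1 and IDI1, at later and earlier steps, were lower as well. MSMO1 had 12.4 and 11.8 CPM against 31.7 and 29.4 (log2 -1.34 ± 0.29, SE, edgeR adjusted p = 0.00266). IDI1 had 29.4 and 30.3 CPM against 70.2 and 65.4 (log2 -1.19 ± 0.25, SE, edgeR adjusted p = 0.00247).

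STARD4, FDPS, ACAT2, SC5D, HSD17B7, FDFT1 and SREBF2 were also lower with Vem than with TCDD, by -0.94 for STARD4 to -0.41 for SREBF2 on the log2 scale. HSD17B7 lost its call whichever of the 4 libraries was left out (-0.65 to -0.47), and SC5D lost it without Vem replicate 1 (-0.62), Vem replicate 2 (-0.58) or TCDD replicate 1 (-0.52). SREBF2 thus stood below its TCDD level while it was called above its vehicle level. TM7SF2 (log2 2.62 ± 0.16, SE, edgeR adjusted p = 2.99e-10) and LSS (0.80 ± 0.10, SE, edgeR adjusted p = 1.8e-06) led the genes that were higher. NR1H3 (0.75 ± 0.15, SE, edgeR adjusted p = 0.000458) and SOAT1 (0.67 ± 0.13, SE, edgeR adjusted p = 0.000252) came next, then NR1H2, CYP27A1 and NPC1 between 0.33 and 0.50. NPC1 was not called without Vem replicate 1 (0.27) or TCDD replicate 1 (0.30), nor NR1H2 without Vem replicate 2 (0.42) or TCDD replicate 1 (0.48). All 18 called genes kept their direction with the spike-ins.

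When RSV was added to Vem, IDI1, INSIG1, SQLE and STARD4 were higher than with Vem alone. This comparison shares the Vem libraries with that of Vem and vehicle, so the values of both are given side by side. Against Vem alone, RSV+Vem had 8 genes higher (background 19.1%) and 3 lower (background 18.7%). IDI1 rose from 29.4 and 30.3 CPM with Vem to 53.7 and 69.5 with RSV+Vem (log2 1.04 ± 0.25, SE, edgeR adjusted p = 0.00848). INSIG1 rose from 17.5 and 18.3 CPM to 31.6 and 35.4 (log2 0.90 ± 0.15, SE, edgeR adjusted p = 0.000124). The INSIG1 libraries with RSV+Vem lay above those with Vem and below those with vehicle, whereas those of IDI1 overlapped the vehicle range.

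SQLE rose from 20.4 and 22.1 CPM to 36.1 and 38.8 (log2 0.81 ± 0.14, SE, edgeR adjusted p = 0.000134), and STARD4 from 13.5 and 15.0 to 22.3 and 26.7 (log2 0.77 ± 0.18, SE, edgeR adjusted p = 0.00306). SC5D, ACAT2, MYLIP and NR1H3 were called higher at 0.57, 0.45, 0.44 and 0.43. NR1H3 was not called by DESeq2 or without Vem replicate 1 (0.37), Vem replicate 2 (0.50) or RSV+Vem replicate 1 (0.28), and SC5D was not called without Vem replicate 1 (0.59), Vem replicate 2 (0.55) or RSV+Vem replicate 2 (0.40). ACAT2 lost its call without Vem replicate 1 (0.38), and MYLIP without Vem replicate 2 (0.40) or RSV+Vem replicate 2 (0.31). CYP27A1 fell from 167 and 179 CPM to 131 and 123 (log2 -0.45 ± 0.09, SE, edgeR adjusted p = 0.00103). LSS fell by 0.33 ± 0.10 (SE, edgeR adjusted p = 0.0121) on the log2 scale, a call lost without Vem replicate 2 (-0.28) or RSV+Vem replicate 1 (-0.25). SREBF2 fell by 0.26 ± 0.09 (SE, edgeR adjusted p = 0.0343), a call lost when any of the 4 libraries was left out, with values from -0.31 to -0.22. TM7SF2 was at 33.9 and 37.1 CPM, within the range of Vem alone or just above it. Leaving out Vem replicate 1 or Vem replicate 2 left 5 genes higher, and leaving out Vem replicate 2 or RSV+Vem replicate 1 left 1 gene lower. After scaling to the spike-ins none of the 11 was called, where 2.08% of all genes were higher and 0.342% lower, and all 11 kept their direction.

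The effect of Vem in cells that also had RSV was read against RSV alone, a comparison that shares no library with Vem against vehicle. With RSV present, 5 genes were higher (background 11.3%) and 3 were lower (background 13.4%). NPC1, which rose with RSV, fell from 163 and 171 CPM with RSV to 103 and 107 with RSV+Vem (log2 -0.67 ± 0.09, SE, edgeR adjusted p = 3.63e-05). SQLE fell by 0.45 ± 0.13 (SE, edgeR adjusted p = 0.017) and FDPS by 0.30 ± 0.10 (SE, edgeR adjusted p = 0.0269) on the log2 scale. Of these, the NPC1 call held whichever library was left out. SQLE was not called without RSV replicate 2 (-0.37) or RSV+Vem replicate 1 (-0.39), and FDPS lost its call whichever of the 4 libraries was left out (-0.32 to -0.28). With the spike-ins none of the 8 genes was called, where 0.124% of all genes were higher and 2.87% lower.

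NR1H2 (0.65 ± 0.15, SE, edgeR adjusted p = 0.00408), TM7SF2 (0.58 ± 0.14, SE, edgeR adjusted p = 0.00509), MVD (0.52 ± 0.15, SE, edgeR adjusted p = 0.0153) and MYLIP (0.44 ± 0.11, SE, edgeR adjusted p = 0.00789) rose the most, followed by CYP27A1 at 0.38, and MVD, MYLIP and CYP27A1 turned to -0.02, -0.12 and -0.14 with the spike-ins. All 5 of these calls depended on single libraries. Without RSV replicate 2, NR1H2 was at 0.43, TM7SF2 at 0.44 and MVD at 0.33, and none of them was called. Without RSV+Vem replicate 1, NR1H2 was at 0.48 and MVD at 0.50, not called, and CYP27A1 was not called without RSV replicate 2 (0.30) or RSV+Vem replicate 1 (0.34). MYLIP was not called without RSV replicate 1 (0.36) or RSV+Vem replicate 2 (0.32). Leaving out RSV replicate 2 or RSV+Vem replicate 1 left 2 genes called higher and 1 lower.

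The difference between these effects was tested as the interaction of RSV and Vem, the effect of Vem with RSV minus its effect without. The interaction was above 0 for 2 genes (background 11.8%) and below 0 for 6 (background 10.9%). For INSIG1 the effect of Vem was -1.33 without RSV and -0.24 with it, an interaction of 1.09 ± 0.20 (SE, edgeR adjusted p = 0.000866). For SQLE it was -1.11 and -0.45, an interaction of 0.67 ± 0.18 (SE, edgeR adjusted p = 0.0144), not called without vehicle replicate 2 (0.47), Vem replicate 1 (0.61) or RSV+Vem replicate 2 (0.62). Without Vem replicate 1 and without RSV+Vem replicate 2, INSIG1 was the 1 gene called above 0. Both are genes that Vem lowered less when RSV was present.

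TM7SF2 had the largest interaction, with a Vem effect of 2.44 without RSV and 0.58 with it (-1.86 ± 0.20, SE, edgeR adjusted p = 6.2e-06). Its level with RSV+Vem was nonetheless as high as with Vem alone, and its level with RSV alone was also above vehicle. NR1H3 (-0.93 ± 0.21, SE, edgeR adjusted p = 0.00407) and LSS (-0.79 ± 0.14, SE, edgeR adjusted p = 0.000475) also lay below 0. Each was raised by Vem and by RSV alone, and by less than the sum of both log2 changes when the agents were combined. Against Vem alone, RSV+Vem was at 0.43 for NR1H3 and at -0.33 for LSS. For NPC1 the effect of Vem was 0.18 without RSV and -0.67 with it (-0.85 ± 0.13, SE, edgeR adjusted p = 0.000124). CYP27A1 and SREBF2 had interactions of -0.75 and -0.44, and SREBF2 was not called without vehicle replicate 1 (-0.30), Vem replicate 2 (-0.39), RSV+Vem replicate 1 (-0.41) or RSV+Vem replicate 2 (-0.46). The other 21 genes did not pass the test, among them INSIG2 at 1.16 with a standard error of 0.54. IDI1 and STARD4, higher with RSV+Vem than with Vem alone, were also among these 21. All 8 called interactions kept their direction with the spike-ins, at 1.19 for INSIG1, 0.79 for SQLE, -0.69 for LSS, -1.77 for TM7SF2, -0.73 for NPC1, -0.76 for NR1H3, -0.61 for CYP27A1 and -0.32 for SREBF2. None of them was called there, and of all 16080 genes 8 were called above 0 and 0 below.

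**Figure D4:**
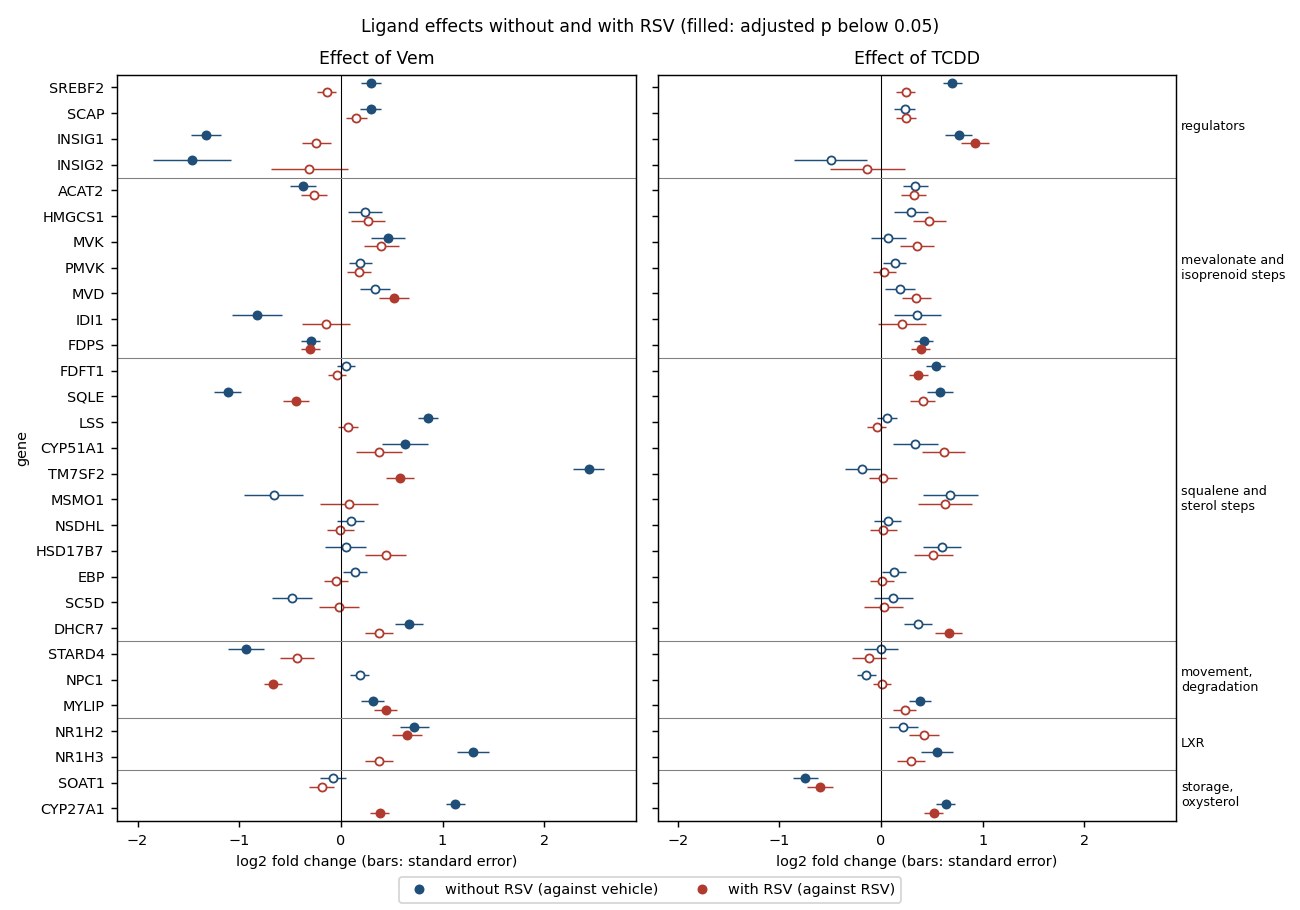
Log2 fold change (horizontal axes, bars are the standard error) of Vem (left) and TCDD (right) for each tested gene, without RSV against vehicle (blue) and with RSV against RSV (red), filled where the adjusted p was below 0.05. The Vem effects on INSIG1 (-1.33 and -0.24), TM7SF2 (2.44 and 0.58) and NPC1 (0.18 and -0.67) lie apart. The TCDD effects on INSIG1 (0.76 and 0.92) and SOAT1 (-0.75 and -0.60) lie close together, while those on SREBF2 lie farther apart. The dose of TCDD may differ between the blue and the red points.

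RSV+TCDD was compared with TCDD and with RSV to ask the same of TCDD. Against TCDD alone, 6 genes were higher (background 18.6%) and 2 were lower (background 19.1%). TM7SF2 rose from 5.01 and 6.32 CPM to 24.6 and 23.5 (log2 2.11 ± 0.16, SE, edgeR adjusted p = 3.93e-08). NR1H3 rose from 7.90 and 8.67 CPM to 17.6 and 17.8 (log2 1.10 ± 0.15, SE, edgeR adjusted p = 1.92e-05). NPC1 rose from 83.5 and 86.5 CPM to 177 and 160 (log2 0.99 ± 0.09, SE, edgeR adjusted p = 3.19e-07). The RSV+TCDD libraries overlapped those of RSV alone in TM7SF2 and NPC1 and lay above them in NR1H3, where the difference did not pass the test (log2 0.29). With the spike-ins 1 gene, TM7SF2, was called higher and 0 lower, against 0.995% and 10.9% of all genes.

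DHCR7 also rose (0.61 ± 0.14, SE, edgeR adjusted p = 0.00192), a call lost without TCDD replicate 1 (0.47), as did LSS and ACAT2 at 0.36 and 0.33, and DHCR7, LSS and ACAT2 turned to -0.07, -0.33 and -0.37 with the spike-ins. LSS was not called without TCDD replicate 1 (0.29), nor ACAT2 without TCDD replicate 1 (0.22) or RSV+TCDD replicate 2 (0.22). PMVK fell by 0.37 ± 0.11 (SE, edgeR adjusted p = 0.017) and SREBF2 by 0.29 ± 0.09 (SE, edgeR adjusted p = 0.0217), and neither was called without TCDD replicate 2 (-0.28 and -0.22) or RSV+TCDD replicate 1 (-0.32 and -0.25), which left 0 genes lower. Without TCDD replicate 1, 3 genes were called higher.

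Against RSV alone, RSV+TCDD had 5 genes higher (background 3.89%) and 1 lower (background 2.28%). INSIG1 rose from 37.9 and 40.9 CPM to 62.3 and 87.2 (log2 0.92 ± 0.13, SE, edgeR adjusted p = 0.00086). SOAT1 fell from 139 and 171 CPM to 95.1 and 109 (log2 -0.60 ± 0.12, SE, edgeR adjusted p = 0.00818), a call lost without RSV replicate 2 (-0.44) or RSV+TCDD replicate 1 (-0.51), which left 0 genes lower. DHCR7 (0.66 ± 0.14, SE, edgeR adjusted p = 0.00725), CYP27A1 (0.52 ± 0.09, SE, edgeR adjusted p = 0.00339) and FDPS (0.39 ± 0.09, SE, edgeR adjusted p = 0.0184) rose, as did FDFT1 at 0.37. With the spike-ins all 5 higher genes turned, to -0.14 for INSIG1, -0.37 for DHCR7, -0.52 for CYP27A1, -0.65 for FDPS and -0.67 for FDFT1, and 7 genes were then called lower, against 43.1% of all genes. DHCR7 was not called without RSV replicate 2 (0.55) or RSV+TCDD replicate 2 (0.66), FDPS was not called without RSV replicate 1 (0.38), RSV replicate 2 (0.40) or RSV+TCDD replicate 2 (0.30), FDFT1 was not called without RSV replicate 1 (0.30) or RSV+TCDD replicate 2 (0.28), and 2 genes were called higher without RSV+TCDD replicate 2.

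The interaction of RSV and TCDD was not called for any of the 29 genes, 0 above 0 (background 0.0124%) and 0 below 0 (background 0.137%) in edgeR and in DESeq2. At an unadjusted p under 0.05, SREBF2 was the 1 gene, with an effect of TCDD of 0.70 without RSV and 0.24 with it. For INSIG1 the interaction was 0.16, with TCDD effects of 0.76 and 0.92, and for SOAT1 it was 0.15, with effects of -0.75 and -0.60. Without vehicle replicate 2, SREBF2 was the 1 gene called below 0 (-0.60).

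**Figure D5:**
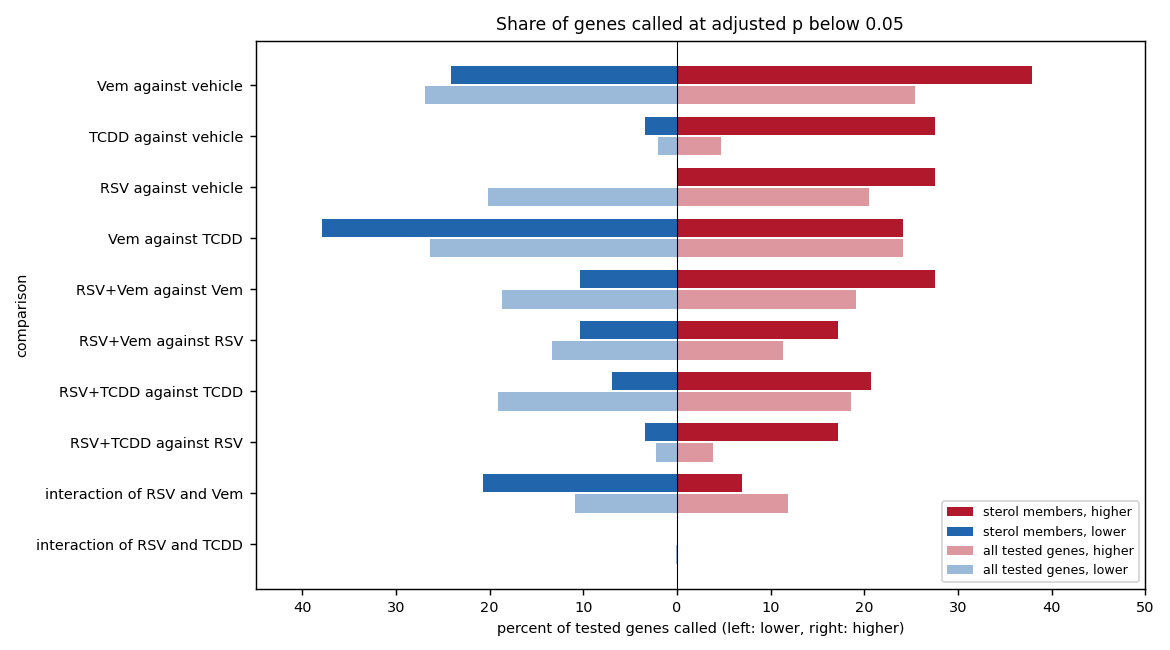
Percent of tested genes called higher (right, red) or lower (left, blue) at an adjusted p below 0.05 in each comparison, for the 29 sterol genes (dark) and all 16080 tested genes (pale). With TCDD against vehicle 8 of 29 sterol genes were higher against 4.72% of all genes, and with RSV against vehicle 0 were lower against 20.2%.

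Of 36 further sterol genes, listed from general knowledge but with earlier results of these data known, 31 were tested. With Vem 12 were higher and 7 lower, against 25.5% and 26.9% of all genes. With TCDD 2 were higher and 1 lower, against 4.72% and 2.01%, and with RSV 11 were higher and 7 lower, against 20.5% and 20.2%. LBR, the other reductase that can act at the step of TM7SF2, had 86.0 and 93.6 CPM with vehicle and 29.0 and 26.4 with Vem, a log2 fold change of -1.70. It thus fell where TM7SF2 rose. LRP8, a lipoprotein receptor, fell by 1.73 on the log2 scale with Vem, while STARD5, a sterol carrier, and POR, the reductase that supplies electrons to CYP51A1 and SQLE, rose by 1.22 and 0.98. With TCDD, SREBF1, the relative of SREBF2, rose by 0.60 and NCEH1, which frees stored cholesterol, fell by 0.55. GRAMD1B, a carrier between the plasma membrane and the endoplasmic reticulum, was called higher with TCDD and with RSV, from 2 and 3 counts with vehicle to 11 and 12 and to 8 and 9. With RSV, STARD5 rose by 0.85. ABCG4, a sterol pump, fell by 1.13 with RSV, from only 28 and 27 counts with vehicle to 12 and 8. NUS1, which binds sterol carrier proteins and serves dolichol synthesis, fell by 0.91 with RSV.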

How the data were processed

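RNA of 12 libraries was measured. Per the labels, the authors made stranded mRNA libraries and processed read pairs with STAR 2.4.0a and featureCounts (Subread 1.5.0-p3) on hg19. The deposited values are raw counts per gene symbol, with no normalization, and the annotation release is not given in the sources used here.

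The 31 genes and the other lists were chosen with earlier results of these data known. The 96 control sequences (92 ERCC) were removed, 16080 of 56638 genes passed filterByExpr by group, and edgeR 4.0.16 (R 4.3.3) with TMM factors of 0.890 to 1.08 fitted 1 term per group to all 12 libraries. The quasi-likelihood test was adjusted over all 16080 genes (Benjamini-Hochberg), with calls below 0.05. Per comparison, statistics are printed for up to 4 called genes with the largest rise and 4 with the largest fall, and of the further sterol genes the 2 and 2 most moved by a single agent. Levels are TMM-scaled CPM. The common coefficient of variation was 0.0915, and chi-square over its degrees of freedom between replicates was 4.47 to 21.3, beyond counting noise. Alternatives were DESeq2 1.42.0, RLE factors, spike-in scaling, no filter, a replicate block, the compared groups alone and each library left out. The fit was tested on simulated data. Overlaps are from GENCODE on GRCh37. On 7 genes antisense to a coding gene, counts per base were a median of 0.00142 of that gene's, so the counts lie on the genes' own strand. Figures were drawn with matplotlib 3.10.9.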

Additional observations from a re-analysis of the deposited data

Results flagged for a closer look

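For 8 genes the effect of Vem differed between cells without and with RSV, as called by the interaction term of the edgeR fit. The interactions on the log2 scale were 1.09 for INSIG1, 0.67 for SQLE, -0.44 for SREBF2, -0.79 for LSS, -1.86 for TM7SF2, -0.85 for NPC1, -0.93 for NR1H3 and -0.75 for CYP27A1. None of the 8 was called with the spike-ins, and the calls of SQLE and SREBF2 depended on single libraries. The cause of the 8 interactions was not tested.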

How the results depend on the processing

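Of the 56 gene results given with statistics, all 56 kept their direction and their call under DESeq2, RLE factors, no filter and the replicate block. Of 94 calls over all members and comparisons, DESeq2 lost 4 (CYP51A1 with Vem, EBP with RSV, and NR1H3 with TCDD and in RSV+Vem against Vem). With only the compared groups fitted, 3 of the 56 lost their call (INSIG2 with Vem, and FDPS in RSV+Vem and in RSV+TCDD against RSV). Of the calls outside the 56, that fit also ended those of NR1H3 with TCDD and of FDFT1 in RSV+TCDD against RSV. It likewise ended those of ACAT2, EBP, MYLIP and CYP27A1 with RSV. Leaving out a library turned the direction of none of the 56, though not all of them kept their call. Calls lost in this way, among the 56 and the others, are named with each comparison above. Spike-in scaling rests on 5366 to 19166 counts per library. Of the 56, it kept 13, ended 36 and reversed 7. Reversed were MVD (-0.016) and MYLIP (-0.12) in RSV+Vem against RSV and DHCR7 (-0.072) in RSV+TCDD against TCDD. The others were INSIG1 (-0.14), DHCR7 (-0.37), CYP27A1 (-0.52) and FDPS (-0.65) in RSV+TCDD against RSV. Calls outside the 56 turned as well. Over all members called with Vem against vehicle, 5 of the 11 higher and 0 of the 7 lower turned. The cause was not tested.

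With the spike-ins, members called higher and lower were 1 and 7 for Vem, 0 and 0 for TCDD and 1 and 0 for RSV, each against vehicle, 1 and 4 for Vem against TCDD, 0 and 0 for RSV+Vem against Vem and against RSV, 1 and 0 for RSV+TCDD against TCDD, 0 and 7 for RSV+TCDD against RSV, and 0 and 0 for the interaction of RSV and Vem. In the same order, all genes called were 195 and 3620, 2 and 8, 256 and 113, 355 and 1199, 334 and 55 (20 and 461 against RSV), 160 and 1752, 1 and 6926, and 8 and 0 of 16080. With only the compared groups fitted, 4 were higher for RSV against vehicle and 3 for RSV+TCDD against RSV. With no filter, 9 were higher for RSV+TCDD against RSV and 5 for the interaction of RSV and Vem.

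With a library left out, counts higher and lower ranged from 6 to 10 and 3 to 8 for Vem, 4 to 7 and 1 to 2 for TCDD and 5 to 9 and 0 to 1 for RSV, each against vehicle. They ranged from 5 to 9 and 9 to 10 for Vem against TCDD, 5 to 7 and 1 to 2 for RSV+Vem against Vem, 2 to 6 and 1 to 2 for RSV+Vem against RSV, 3 to 8 and 0 to 3 for RSV+TCDD against TCDD, 2 to 7 and 0 to 1 for RSV+TCDD against RSV, 1 to 3 and 5 to 7 for the interaction with Vem, and 0 to 0 and 0 to 1 for that with TCDD.

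The replicate numbers were not taken as pairs: replicate differences of 15 group pairs correlated at -0.45 to 0.48, with 6 pairs over 0.1 and 5 under -0.1. With the replicate block, 7 members were higher in RSV+TCDD against RSV and 8 in RSV against vehicle. ABCA1 and ABCG1 were too shallow to compare.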
